A study of Sus scrofa with 12 samples.

Results

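PRG4, ISLR, FBLN1 and IGFBP5 encode secreted proteins of the stroma and the extracellular matrix, and their mRNA levels were described in back subcutaneous fat and in longissimus dorsi (LD) muscle from pigs of the Dingyuan breed, which is native to China. The 4 genes were chosen by name from the gene and protein tables of the study, which were made from these same pigs, and are 4 of the 31903 gene identifiers in the expression table. The RNA-Seq data held 12 libraries in 4 groups of 3, all from unmated sows 300 days old. The fat libraries came from sows of low backfat thickness (LBF) or high backfat thickness (HBF), and the muscle libraries from sows of low intramuscular fat (LIMF) or high intramuscular fat (HIMF). The sows were picked from a herd as extremes of live backfat thickness and were of similar body weight. The groups were formed after slaughter from backfat thickness and intramuscular fat content, so the muscle groups are not described as herd extremes of intramuscular fat. Each contrast is between animals that differ in a trait and not between treatments. By the study's group means, the high group of each contrast was also higher in the other fat trait, but not significantly. The names of the libraries use the same numbers in fat and in muscle, but the sources used here do not state whether a fat and a muscle library came from the same sow, and comparisons between the tissues treated the 12 libraries as independent.

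Between the adipocytes of fat and the fibres of muscle lie fibroblasts and other stromal cells, which secrete collagens, proteoglycans and glycoproteins and release or bind growth factors. PRG4 (proteoglycan 4, or lubricin) is the boundary lubricant of joint surfaces and binds the hyaluronan receptor CD44 and Toll-like receptors. ISLR (also called Meflin) is a membrane-anchored or secreted leucine-rich repeat protein known as a marker of mesenchymal stromal cells, FBLN1 (fibulin-1) is a glycoprotein of elastic fibres and basement membranes, and IGFBP5 binds the insulin-like growth factors IGF1 and IGF2 and can be held in the matrix.

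On the Sscrofa11.1 assembly, PRG4 (ENSSSCG00000029449) spans positions 127463875 to 127481770 of chromosome 9 and ISLR (ENSSSCG00000001910) spans 59349674 to 59352936 of chromosome 7. FBLN1 (ENSSSCG00000000010) spans 3839498 to 3927178 of chromosome 5, and IGFBP5 (ENSSSCG00000025924) spans 118861816 to 118877787 of chromosome 15. These spans are those of RefSeq, matched by symbol. The span of PRG4 overlaps that of TPR, a nuclear pore gene, and since the use of strand in counting is not given in the sources used here, reads from their overlap cannot be told apart. TPR itself lay between 6.21 and 6.86 FPKM in LBF and between 7.15 and 8.04 in HBF, a log2 fold change of 0.22.

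IGFBP5 was also one of the genes for which the study designed RT-qPCR primers. The pair is shown because it identifies the transcript that was assayed a second way. No RT-qPCR value is used here, and the primers were not placed on the genome. Each primer is written 5′ to 3′ with no base marked.
IGFBP5 forward: caactgtgaccgcaagggatt
IGFBP5 reverse: cgaagctgtggcactggaag

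Levels are FPKM, that is, fragment counts scaled by transcript length and library size, and can be set beside each other between genes. The labelled tissues were checked against their markers. Summed over 8 adipocyte markers, the fat libraries lay between 8305 and 13307 FPKM and the muscle libraries between 89.8 and 199. The 5 skeletal muscle markers that could be matched summed to 3969 FPKM or more in every muscle library, to 0.591 to 2.07 in HBF and to 1.83 to 196 in LBF. The highest LBF value was in replicate 3, so the LBF library labelled replicate 3 held more muscle RNA than the other fat libraries, and the main fat values are given below with and without it. ACTA1 (skeletal actin) was listed at 0 in 4 of 6 muscle libraries and CKM (muscle creatine kinase) in 2 of 6, so a listed 0 may be a failed estimate and is not read as absence.

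**Figure D1:**
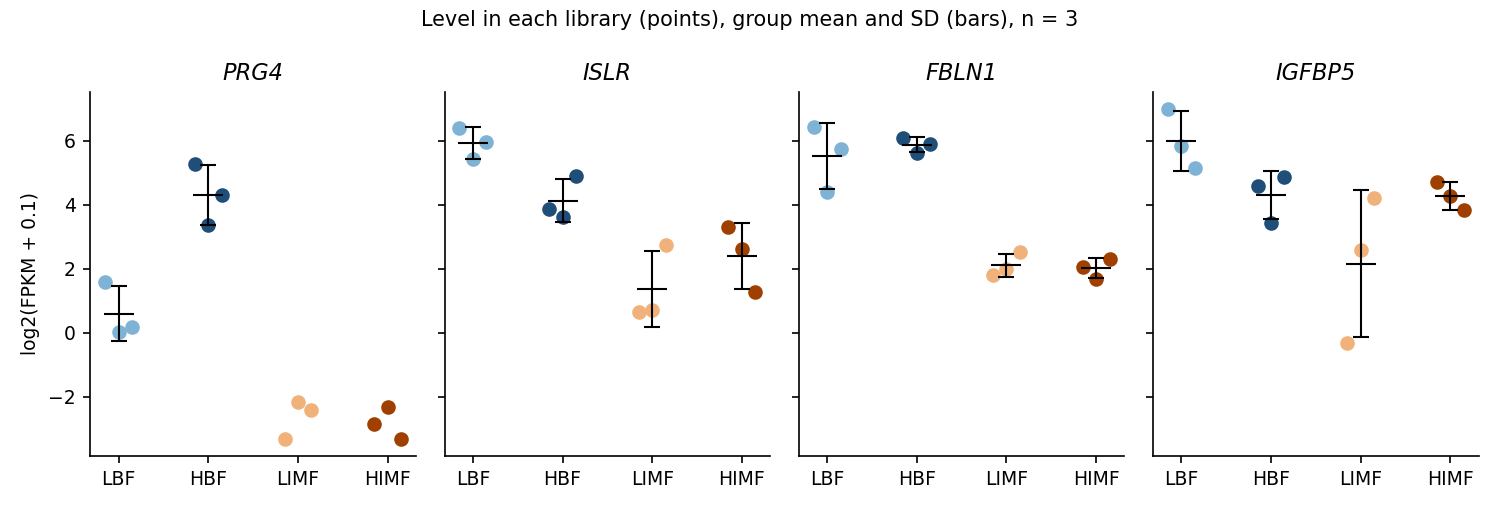
Level of PRG4, ISLR, FBLN1 and IGFBP5 in each of the 12 libraries on a log2(FPKM + 0.1) axis, with points for libraries and horizontal bars with whiskers for the group mean and SD (n = 3). No mean is drawn for PRG4 in LIMF and HIMF, where 1 library of each group is listed at 0. PRG4 separates the HBF from the LBF libraries, IGFBP5 ranges from 0.706 to 18.5 FPKM among the LIMF libraries, and FBLN1 forms one band per tissue.

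PRG4 had the largest difference of the 4 genes between the fat groups. The HBF libraries held 38.2, 10.3 and 19.6 FPKM of PRG4, against 2.94, 0.921 and 1.03 FPKM in the LBF libraries. Every HBF library lay above every LBF library, and the lowest HBF level exceeded the highest LBF level. The group means were 22.7 ± 14.2 FPKM in HBF and 1.63 ± 1.13 in LBF (SD, n = 3), so PRG4 ranked above 85.9% of the 16239 genes tested in HBF and above 36.5% of them in LBF. The log2 fold change was 3.71 (SE 0.57, 95% confidence interval 2.36 to 5.05), about 13.1-fold on the log2(FPKM + 0.1) scale, which understates the change of genes at low levels. With limma and Benjamini-Hochberg adjustment over all genes the p was 0.168, which did not pass the limit of 0.01 (unadjusted p = 3.15e-04).

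ISLR and IGFBP5 lay the other way. ISLR was at 14.4, 12.2 and 29.6 FPKM in HBF, while the LBF libraries had 85.0, 42.6 and 62.2. No HBF library reached the lowest LBF level, and the log2 fold change was -1.81 (SE 0.38, 95% confidence interval -2.70 to -0.91; limma adjusted p = 0.223). IGFBP5 was at 23.9, 10.8 and 28.9 FPKM in HBF, while the LBF libraries had 129, 57.3 and 35.5. The groups did not overlap, although HBF replicate 3 and LBF replicate 3 were close, and the log2 fold change was -1.71 (SE 0.53, 95% confidence interval -2.96 to -0.46; limma adjusted p = 0.285). The ISLR and IGFBP5 levels of HBF were about 0.286 and 0.306 times those of LBF on the log2(FPKM + 0.1) scale.

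FBLN1 did not separate the fat groups. It was at 68.0, 49.0 and 60.0 FPKM in HBF, and LBF replicates 1, 2 and 3 had 86.3, 21.2 and 53.4. The HBF libraries sat inside the LBF range, with a coefficient of variation of 16.1% in HBF and 60.7% in LBF. The log2 fold change was 0.34 (SE 0.47, 95% confidence interval -0.76 to 1.45; limma adjusted p = 0.776), and it was -0.21 without LBF replicate 2.

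In the fat comparison, limma called 0 of 16239 genes, or 0%, a call being an adjusted p under 0.01 with at least a doubling or halving. Before adjustment 2206 genes, or 13.6%, had a p under 0.05 (9.36% higher and 4.22% lower in HBF), and the groups did not overlap for 20.4% of genes (13.9% higher and 6.46% lower in HBF). PRG4, ISLR and IGFBP5, 3 of the 4 genes, were in both sets, but their choice from tables made on these pigs means that this count is a description only. In the limma fit over all 12 libraries the unadjusted p of IGFBP5 was 0.0823, so its place at a p under 0.05 depends on the fit. The exact permutation test over the 6 libraries, two-sided, gave p = 0.10 for each of these 3, the smallest value that 3 libraries against 3 allow, and p = 0.80 for FBLN1. Of the genes with an unadjusted p below 0.05, those higher in HBF made up 68.9%, a share that was 49.0% after median-of-ratios scaling and 47.2% after quantile normalization, under which the log2 fold changes of PRG4 were 3.62 and 3.61, those of ISLR -1.90 and -1.87, and those of IGFBP5 -1.80 and -1.78.

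**Figure D2:**
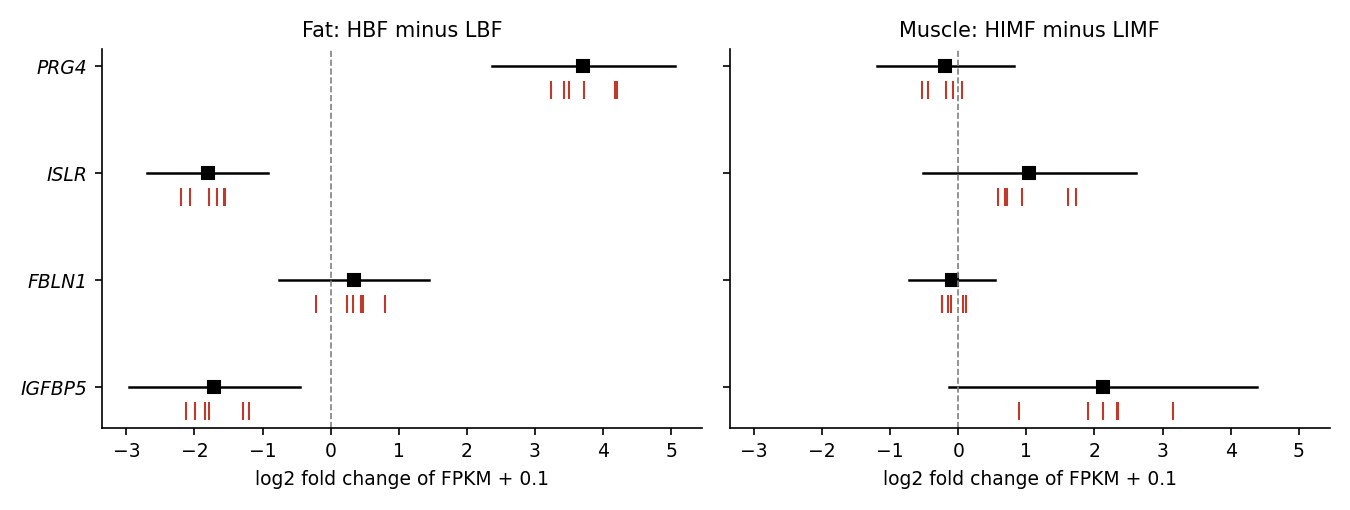
Log2 fold changes of the 4 genes in fat (HBF minus LBF, left) and LD muscle (HIMF minus LIMF, right), with squares for the estimate, black lines for the 95% confidence interval from limma and red ticks for the estimate with each single library left out. In fat, PRG4 stays at or above 3.24 and ISLR at or below -1.56 in every tick, whereas the IGFBP5 ticks in muscle run from 0.89 to 3.15.

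Without LBF replicate 3, the fat library with the highest sum of muscle markers, the log2 fold changes in fat were 3.50 for PRG4, -1.79 for ISLR, 0.45 for FBLN1 and -2.13 for IGFBP5. The limma adjusted p values of PRG4, ISLR and IGFBP5 were then 0.193, 0.220 and 0.212. Each fat contrast thus kept its direction without that library.

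As a list, the marker genes of stromal cells did not separate the fat groups. Of the 12 fibroblast and adipose stromal markers listed, 11 were matched and 10 tested, and their median log2 fold change was 0.04, beside 0.09 over all genes tested. MEOX1 was the only marker of this list at an unadjusted p under 0.05. DPP4 was the only one tested whose groups did not overlap, at 2.60 to 4.67 FPKM in HBF and 1.60 to 2.57 in LBF. Of all genes tested, 13.9% were higher in HBF without overlap. The summed markers came to 1647, 823 and 1824 FPKM in HBF, against 2995, 1153 and 2624 in the LBF libraries, where LBF replicate 2 and HBF replicate 2 were the lowest of their groups. When each library was scaled to the mean log2 level of these markers, PRG4 had a log2 fold change of 3.74 and a limma adjusted p of 0.00195, which passed the limit. ISLR had -1.78 (adjusted p = 0.0855), IGFBP5 -1.68 (adjusted p = 0.240) and FBLN1 0.37 in the same limma fit. This scaling was chosen after the data were seen, and it raised limma's prior degrees of freedom from 3.095 to 12.6.

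Markers of other cell types were set beside these values, and the mean log2 level of each list overlapped between the fat groups. Of 8 adipocyte markers, LEP was higher in HBF (0.96 on the log2 scale) and LPL lower (-0.95), both without overlap. These 2 alone of that list had an unadjusted limma p under 0.05, beside 9.36% higher and 4.22% lower over all genes tested. The median of the adipocyte list was -0.12, and none of it was called. Of 7 macrophage markers 5 were higher in HBF with an unadjusted p below 0.05, against 9.36% of all genes tested, and none was called by limma. Summed macrophage markers ranged from 87.3 to 204 FPKM in LBF and from 189 to 223 in HBF, and those of smooth muscle and pericytes from 174 to 200 in LBF and from 275 to 423 in HBF. Of 6 smooth muscle and pericyte markers only TAGLN (transgelin) had an unadjusted p under 0.05, with a log2 fold change of 1.30, while RGS5 was at -0.81 and the median of the list was 0.16. All 5 skeletal muscle markers tested had values below 0, with a median of -2.01. ACTN2 (alpha-actinin-2) and CASQ1 (calsequestrin-1) did not overlap between the groups, the HBF libraries being the lower, beside 6.46% of all genes tested. For CASQ1, LBF replicate 2 was close to HBF replicate 2, near the pseudocount of 0.1. The other markers did not place LBF replicates 1 and 2 above HBF. ACTA1 and CKM of these LBF replicates lay inside the HBF range, and their TNNT3 lay below every HBF library. The summed skeletal muscle markers overlapped between the groups. ACTN2 had an unadjusted p of 0.0102, and none was called by limma. The part of these cell types in the PRG4, ISLR and IGFBP5 differences was not tested, and in bulk tissue fewer cells of a type and less RNA per cell cannot be told apart. Of 6 mesothelial markers only WT1 could be matched, at no more than 0.0454 FPKM in any fat library.

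**Figure D3:**
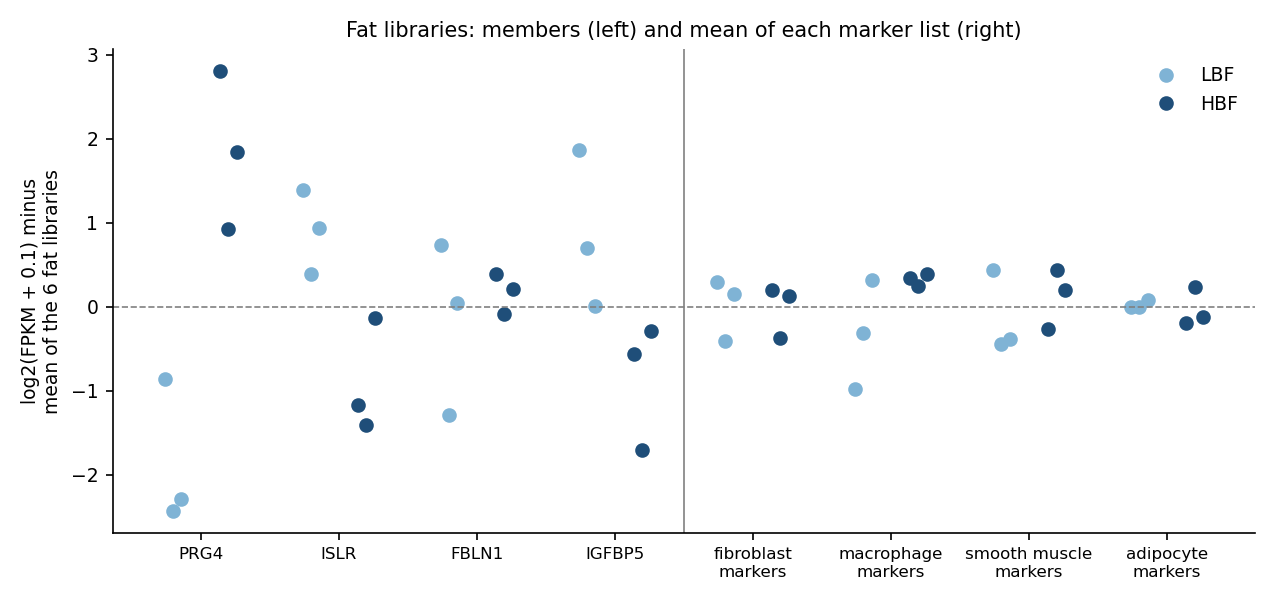
The 4 genes and the mean of 4 marker lists in the 6 fat libraries, as log2(FPKM + 0.1) minus the mean of the 6 libraries, with pale points for LBF and dark points for HBF. The PRG4, ISLR and IGFBP5 points of the groups do not overlap, while the points of each marker list do.

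In LD muscle all 4 genes were lower than in fat on average, and none passed the test between HIMF and LIMF. PRG4 was at or near 0: LIMF replicate 1 and HIMF replicate 3 were listed at 0, the other LIMF libraries had 0.122 and 0.0883 FPKM, and the other HIMF libraries 0.0397 and 0.102. At these levels the log2 fold change of -0.19 (SE 0.44; limma adjusted p = 0.947) mostly reflects the pseudocount of 0.1, and its sign changed without HIMF replicate 3 and with scaling to the fibroblast markers.

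ISLR was at 9.84, 6.06 and 2.33 FPKM in HIMF, against 1.46, 1.54 and 6.57 in LIMF. The groups overlapped, since LIMF replicate 3 exceeded 2 of the 3 HIMF libraries. The log2 fold change was 1.04 (SE 0.68, 95% confidence interval -0.52 to 2.61; limma adjusted p = 0.803). The exact permutation test gave p = 0.30. The ISLR value was 0.59 without HIMF replicate 1 and 1.73 without LIMF replicate 3, with limma adjusted p values of 0.945 and 0.231.

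IGFBP5 was at 26.3, 19.4 and 14.3 FPKM in HIMF, against 0.706, 5.86 and 18.5 in LIMF. LIMF replicate 3 lay among the HIMF libraries, and the LIMF libraries differed from one another by 26.1-fold, the HIMF libraries by 1.84-fold. The log2 fold change was 2.12 (SE 0.98, 95% confidence interval -0.13 to 4.38; unadjusted p = 0.0619, limma adjusted p = 0.719; exact permutation p = 0.20). It was 0.89 without LIMF replicate 1 and 3.15 without LIMF replicate 3, with limma adjusted p values of 0.824 and 0.157.

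FBLN1 again showed no separation, at 4.02, 3.13 and 4.87 FPKM in HIMF and 3.39, 3.89 and 5.62 in LIMF. The log2 fold change was -0.09 (SE 0.27, 95% confidence interval -0.72 to 0.54; limma adjusted p = 0.957). In muscle limma called 0 of 14292 genes, 0%, while 1004 genes or 7.02% (4.51% higher and 2.52% lower in HIMF) passed an unadjusted p of 0.05 and the groups of 12.7% did not overlap. None of the 4 genes was in either set, although in the limma fit over all 12 libraries IGFBP5 had an unadjusted p of 0.0359 (adjusted p = 0.415). Of 8 adipocyte markers in muscle, 4 were higher in HIMF with an unadjusted p below 0.05 (among them ADIPOQ at 1.90 and PLIN1 at 1.98 on the log2 scale) and LPL was lower, at -1.30, and none was called by limma. The HIMF libraries had mean log2 levels of 2.75, 2.28 and 2.39 over the list, each above the 1.83, 2.19 and 1.45 of LIMF, whereas their sum ran the other way, from 162 to 199 FPKM in LIMF and from 89.8 to 151 in HIMF. Their part in the IGFBP5 and ISLR values was not tested.

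The fat and muscle contrasts were compared directly, as the difference of HBF minus LBF and HIMF minus LIMF in 1 fit over the 12 libraries. The difference was 3.90 for PRG4 (SE 0.77), -2.85 for ISLR (SE 0.87), 0.43 for FBLN1 (SE 0.58) and -3.83 for IGFBP5 (SE 1.27) on the log2 scale. The limma adjusted p values were 0.210, 0.365, 0.820 and 0.377, so none passed the limit of 0.05. The difference was also set against all 400 relabellings of the libraries within tissues, where the exact two-sided permutation p was 0.04 for PRG4, 0.025 for ISLR, 0.60 for FBLN1 and 0.015 for IGFBP5. That relabelling takes no change in either tissue as its null, so a separation in fat alone can lower the p, and the genes were taken from tables made on these libraries. These values are therefore no test of whether the change differed between tissues. limma called 0 of 15965 genes (0%) for this difference, with 1628 or 10.2% at an unadjusted p under 0.05. The 2 contrasts rest on different traits, backfat thickness and intramuscular fat.

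By group means, ISLR and IGFBP5 ran from LBF through HBF and HIMF to LIMF, and FBLN1 ran from HBF through LBF and LIMF to HIMF. ISLR had group means of 63.3 ± 21.2 FPKM in LBF, 18.7 ± 9.45 in HBF, 6.08 ± 3.76 in HIMF and 3.19 ± 2.93 in LIMF (SD, n = 3). None of its neighbours in that order passed the limit of 0.01 in the limma fit over the 12 libraries, with adjusted p values of 0.327 for LBF and HBF, 0.0256 for HBF and HIMF and 0.651 for HIMF and LIMF. HBF lay above HIMF by 1.72 on the log2 scale, and by 0.67 after median-of-ratios scaling, an alternative added after the data were seen. IGFBP5 had means of 73.8 ± 48.7 FPKM in LBF, 21.2 ± 9.34 in HBF, 20.0 ± 6.04 in HIMF and 8.35 ± 9.14 in LIMF (SD, n = 3). As deposited, IGFBP5 in HBF fat minus that in HIMF muscle was 0.01 on the log2 scale, with a 95% confidence interval of -1.95 to 1.97. After median-of-ratios scaling it was -1.05 (-2.97 to 0.87), so the order of these groups depends on the scaling.

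FBLN1 had means of 59.0 ± 9.51 FPKM in HBF and 53.6 ± 32.5 in LBF, and 4.30 ± 1.17 in LIMF and 4.01 ± 0.869 in HIMF (SD, n = 3). The only step between neighbours larger than the spread was that between the tissues, LBF above LIMF by 3.42 on the log2 scale (limma adjusted p = 1.70e-05), or 2.40 after median-of-ratios scaling. PRG4 was highest in HBF and second in LBF, and the LBF libraries exceeded those of LIMF by 3.24 on the log2(FPKM + 0.1) scale (limma adjusted p = 2.37e-04).

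Between fat and muscle as a whole, limma called 9009 of 15965 genes (56.4%), of which 7526 were higher in fat (47.1% of the genes tested). The split depended on scaling, with 4210 of 7627 called genes higher in fat after median-of-ratios scaling, since the median log2 difference over all genes was 0.97 as deposited and 0.12 after it. PRG4, FBLN1 and ISLR were called, at 5.19 (SE 0.38, limma adjusted p = 1.43e-07), 3.64 (SE 0.29, adjusted p = 2.58e-07) and 3.14 (SE 0.44, adjusted p = 3.24e-05) higher in fat on the log2 scale. With median-of-ratios scaling these were 4.51, 2.60 and 2.11, and all passed in limma. IGFBP5 was 1.93 higher (SE 0.63) but its limma adjusted p of 0.0146 did not pass the limit of 0.01, and after median-of-ratios scaling it was 0.90 higher (adjusted p = 0.212). Every fat library lay above every muscle library for PRG4, ISLR and FBLN1, as it did for 49.3% of genes, and the IGFBP5 libraries overlapped. The size of the PRG4 value depends on the pseudocount, at 2.77 with 1 and 6.91 with 0.01, because the muscle values lie near it.

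The IGF axis, the ligands, receptors, binding proteins and proteases around IGFBP5, is shown next. Of 16 genes listed 14 were matched and 13 tested in fat. With an unadjusted p below 0.05, 2 genes were higher in HBF, IGFBP4 and STC2 (0.96 on the log2 scale), and 2 were lower, IGFBP5 and PAPPA2 (-1.57), beside 9.36% higher and 4.22% lower over all genes tested. The median log2 fold change was 0.38 with IGFBP5 and 0.46 without it, beside 0.09 over all genes, and none was called by limma. PAPPA2 is a protease that cleaves IGFBP5, and it lay at 0.0503, 0.210 and 0.158 FPKM in HBF against 1.21, 0.187 and 0.731 in LBF, so its groups overlapped. IGFBP4, another binding protein, lay at 95.2, 121 and 81.4 FPKM in HBF and 73.7, 52.9 and 29.9 in LBF. All its HBF libraries were above all its LBF libraries, the reverse of IGFBP5. The ligand IGF1 had a log2 fold change of 0.06.

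In muscle 12 genes of the axis were tested. The receptor IGF1R was at 0.899, 0.589 and 0.631 FPKM in HIMF and 1.80, 1.45 and 1.35 in LIMF, a log2 fold change of -1.03 (unadjusted p = 0.00567, limma adjusted p = 0.544). STC2 (stanniocalcin-2, an inhibitor of pappalysin proteases) was at -1.53 in muscle, the opposite sign to its value in fat. These were the 2 genes of the list at an unadjusted p under 0.05 in muscle, both lower in HIMF, beside 2.52% of all genes tested, and none was called.

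The share of IGFBP5 in its family was computed within each library, where a common scaling of the library cancels. IGFBP5 made up 14.9%, 14.3% and 8.89% of the summed FPKM of 6 IGFBP genes in LBF and 2.55%, 2.18% and 5.34% in HBF. The shares of the groups did not overlap. In muscle the shares were 1.58%, 8.32% and 22.6% in LIMF and 31.3%, 19.8% and 14.1% in HIMF, and the groups overlapped. IGFBP3 could not be matched to an identifier and is not in the sum. FBLN1 made up 11.0% to 27.8% of 6 fibulin genes in LBF and 19.1% to 19.3% in HBF.

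**Figure D4:**
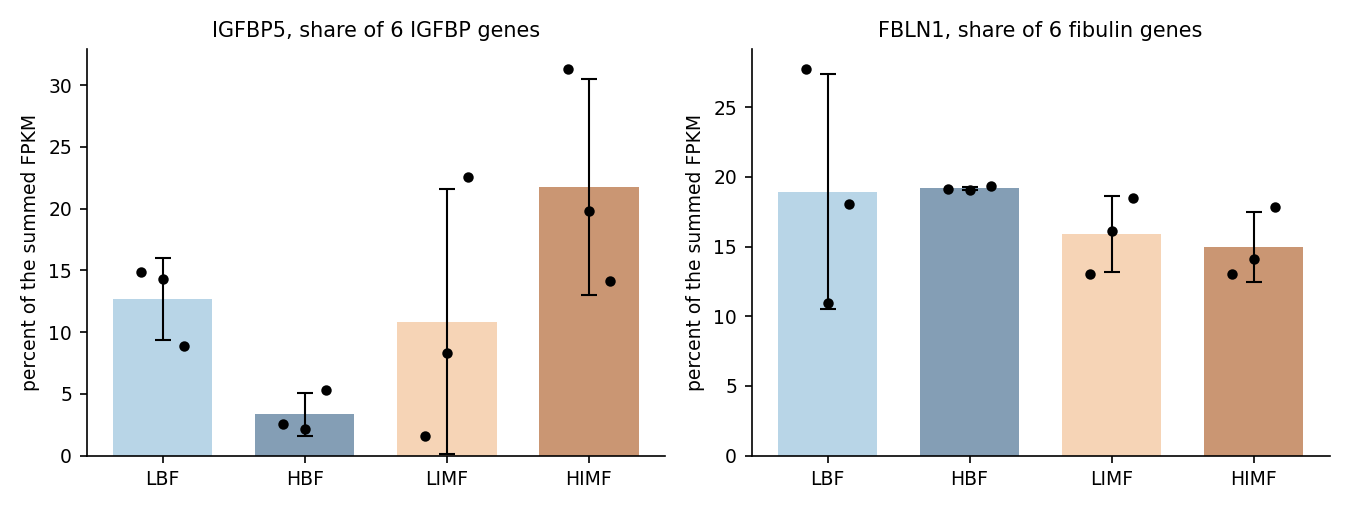
Share of IGFBP5 in the summed FPKM of 6 IGFBP genes (left) and of FBLN1 in that of 6 fibulin genes (right), in percent, with points for libraries and bars with whiskers for the mean and SD (n = 3). The IGFBP5 shares of LBF, 8.89% to 14.9%, lie above those of HBF, 2.18% to 5.34%, while the FBLN1 shares of HBF lie inside the LBF range.

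Among 21 listed partners of lubricin and hyaluronan, 19 were matched and 18 tested in fat, PRG4 included. CD44 (the hyaluronan receptor) was 0.71 higher in HBF on the log2 scale, ITIH4 0.57, ITIH5 0.46 and CTSB (cathepsin B) 0.80, each at an unadjusted p under 0.05. HAPLN3 (a hyaluronan link protein) was 1 gene lower at that limit, at -0.78 (unadjusted p = 0.0307). These counts stand beside 9.36% higher and 4.22% lower over all genes tested. The median of the list was 0.37 without PRG4, and none was called by limma. The next largest value after PRG4 in this list was 0.92, for the hyaluronidase HYAL2, and the hyaluronan synthases HAS1, HAS2 and HAS3 had values of 0.39, 0.21 and -0.18, none at an unadjusted p under 0.05. In muscle 14 were tested and none had an unadjusted p under 0.05.

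Of 19 fibulin and elastic fibre genes 18 were tested, and FBLN2 alone had an unadjusted p under 0.05 in fat, at 0.82 higher in HBF on the log2 scale. The HBF libraries held FBLN2 at 182, 100.3 and 115 FPKM and the LBF libraries at 104, 53.5 and 68.2, so HBF replicate 2 lay below LBF replicate 1. The list had a median of 0.04 in fat and 0.12 in muscle. The 16 collagen and small leucine-rich proteoglycan genes, the bulk of fibrous matrix, had 0 at an unadjusted p under 0.05 by limma in either tissue, with medians of -0.20 in fat and -0.14 in muscle. In fat 13 of the 16 were below 0 and 3 above, beside 6437 below and 9802 above over all genes tested. The lowest was COL1A2 at -1.03, with DCN (decorin) at -0.83 and COL1A1 at -0.67.

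Of 30 secreted and matrix genes that the study tables list, the 4 genes included, 29 were tested in fat. Of these 11 were higher and 12 lower in HBF with an unadjusted p below 0.05, beside 9.36% and 4.22% of all genes tested, and 0 were called by limma. This list was drawn from tables made on these same libraries, so the counts are not independent evidence of any direction. In muscle 26 were tested, of which PI15 was higher (1.45 on the log2 scale) and ADAMTSL5 lower (-1.79) at an unadjusted p under 0.05, beside 4.51% and 2.52% of all genes tested.

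**Figure D5:**
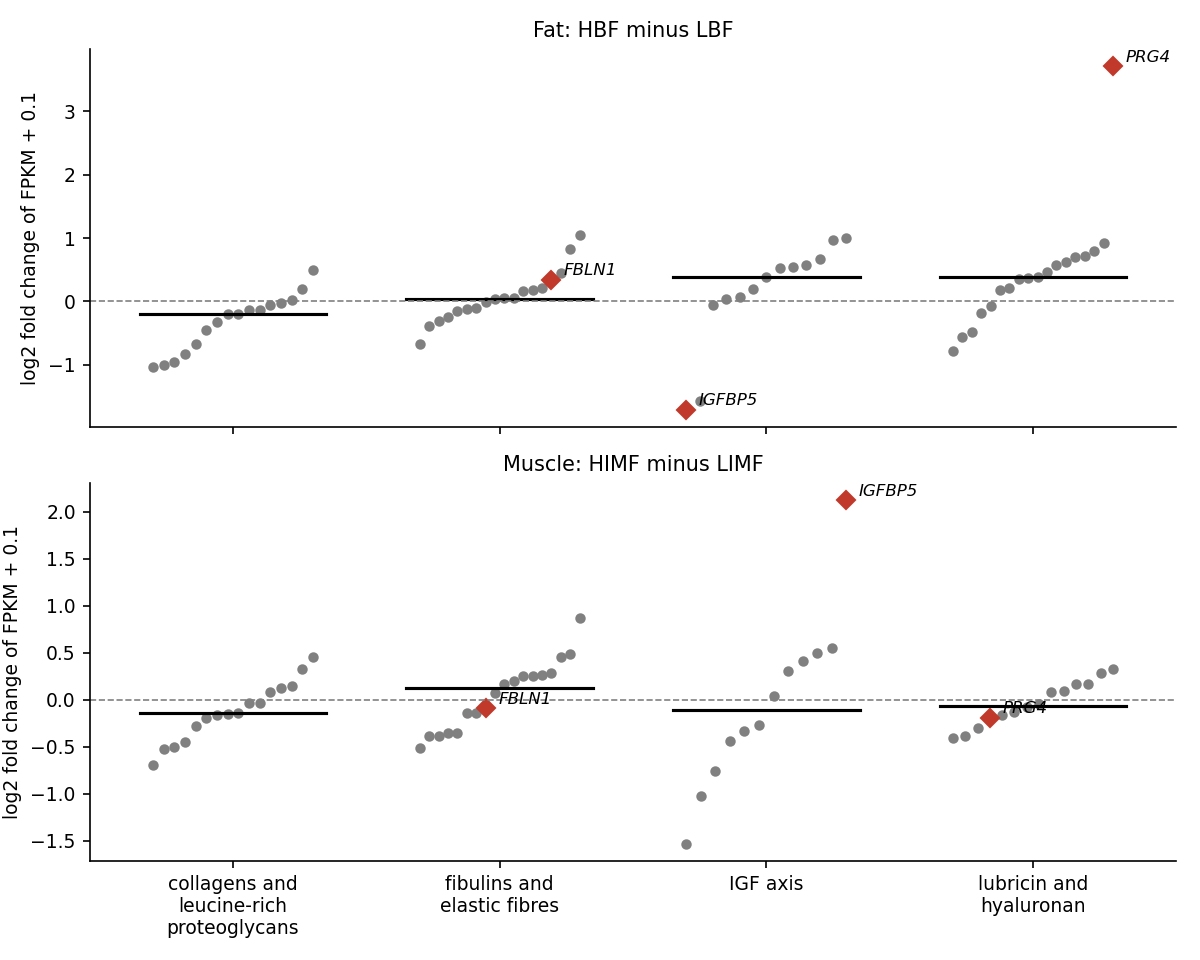
Log2 fold changes of FPKM + 0.1 for the genes of 4 lists in fat (top) and muscle (bottom), with grey points for genes, red diamonds for PRG4, FBLN1 and IGFBP5 and black bars for the list median. In fat PRG4 lies at 3.71, above the other lubricin and hyaluronan partners, and IGFBP5 at -1.71, while in muscle IGFBP5 is the highest of the IGF axis at 2.12. ISLR is in none of these lists.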

How the data were processed

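Total RNA of 12 libraries (3 per group, LBF, HBF, LIMF and HIMF) was sequenced on the Illumina platform. Per the labels and the study's methods, reads were trimmed with fastp and aligned with HISAT2 to Sscrofa11.1, and the deposited FPKM values were computed by the authors with Cufflinks 2.2.1. Read depth cannot be had from FPKM, so no count test was run, although the study used DESeq2 1.25.9 to compare groups. The study's limits (adjusted p under 0.01, absolute log2 fold change of at least 1) were kept. The table had 31910 rows, and 7 identifiers on 2 rows were summed.

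limma 3.58.1 (R 4.3.3; lmFit, eBayes with trend) was fitted on log2(FPKM + 0.1), keeping genes whose mean FPKM exceeded 0.05, with Benjamini-Hochberg adjustment, tested on simulated data. Whether samples are separate animals is taken from the methods. Symbols came from the reference table or the study's tables. The 4 genes, the lists and the tests were chosen with earlier results of these data known. Other scalings, filters, pseudocounts, a replicate block and leaving out each library were tried. For each gene, the 3 named genes with the highest tissue-centred correlation were also named.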

Additional observations from a re-analysis of the deposited data

Results flagged for a closer look

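For 3 of the 4 genes the high against low change in fat minus that in muscle had a p under 0.05 when the libraries were relabelled within fat and within muscle. The null of that relabelling is no change in either tissue, the genes were chosen from tables made on these libraries, and limma's adjusted p for the difference did not pass for any, so a difference between tissues is not shown. The difference, fat minus muscle, was 3.90 for PRG4 (exact permutation p = 0.04, limma adjusted p = 0.210), -2.85 for ISLR (p = 0.025, adjusted p = 0.365) and -3.83 for IGFBP5 (p = 0.015, adjusted p = 0.377). For PRG4 the muscle values were at or near 0. For ISLR and IGFBP5 the sign of the change was negative in fat and positive in muscle, with overlap of the groups in muscle. The values without each library ranged from 3.43 to 4.40 for PRG4, -3.54 to -2.40 for ISLR and -4.86 to -2.59 for IGFBP5. No group has 4 or more libraries, so single libraries were not tested for standing apart.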

How the results depend on the processing

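Of 181 results under alternatives that left out no library, 171 stayed on the same side of their limit and within 1.5 times their count. Scaling to the fibroblast markers, chosen after seeing the data, raised the genes called in fat from 0 to 3, brought PRG4 past the limit at 3.74, and turned FBLN1 and PRG4 in muscle to 0.10 and 0.0029. Genes called in muscle became 1 with all 12 libraries in 1 fit. Genes called for the difference between tissues became 2 without the trend, 1 with no filter, 1 with pseudocount 0.01 and 1 with pseudocount 1, and fat against muscle 5864 with pseudocount 1. The causes were not tested. Leaving out 1 library, calls ranged from 0 to 2 in fat, 0 to 5 in muscle and 0 to 118 for the difference (118 without LIMF replicate 3). FBLN1 ranged from -0.21 to 0.80 in fat, -0.24 to 0.12 in muscle and -0.12 to 0.89 for the difference, PRG4 in muscle from -0.53 to 0.059, and IGFBP5 fat against muscle from 1.31 to 2.44, called without LIMF replicate 3 (limma adjusted p = 0.00122). PRG4 in muscle gave no value with a mean FPKM above 1 or without LIMF replicate 2. Replicate numbers did not meet the limit for pairing (every correlation over 0.1), with same-number correlations of 0.07, 0.13 and 0.007 in fat and -0.07, 0.05 and -0.05 in muscle. Between tissues they were 0.13, 0.24 and 0.06 for LBF with LIMF, where each LBF library correlated best with its own number, and -0.05, -0.05 and -0.04 for HBF with HIMF, where none did. With the replicate block, limma called 0 genes in fat, 0 in muscle and 0 for the difference, and PRG4 in fat was 3.71 (adjusted p = 0.0800), so no call of a member changed.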

Other observations

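Markers of vessels, tendon and skin were also measured in fat. The 4 endothelial markers tested were all above 0 on the log2 scale in fat, with a median of 0.64, and limma gave none an unadjusted p under 0.05. Of 8 tendon and fascia markers 4 were above and 4 below 0, with a median of -0.04, and of the 2 keratinocyte markers tested both were above 0, with none of either list at an unadjusted p under 0.05.

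Among named genes, those whose pattern over the 12 libraries was most like FBLN1 after the mean of each tissue was removed were EPDR1 (Pearson r = 0.969), SFRP4 (0.943), a secreted Wnt antagonist, and SULF2 (0.917), a heparan sulfate sulfatase. For ISLR they were MAMDC4 (0.931), TEF (0.903) and TKT (0.901), the transketolase of the pentose phosphate pathway. For PRG4 they were INPP5E (0.948), RPS6KL1 (0.919) and FAM78B (0.918), and for IGFBP5 ZCCHC4 (0.950), LIN9 (0.934) and MBIP (0.919). These correlations are the highest of 7896 genes searched (10418 for PRG4), are given as descriptions, and come from libraries that share groups and scaling.

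Neighbouring genes on the chromosome are given as values. IGFBP2, which lies 10831 bases from IGFBP5, was at 7.92, 4.93 and 6.97 FPKM in HBF and at 6.43, 2.84 and 3.56 in LBF, with a log2 fold change of 0.67 (unadjusted p = 0.0775). ISLR2, which lies 32085 bases from ISLR, was at no more than 0.469 FPKM in the fat libraries other than LBF replicate 3, where it was at 2.96, and its log2 fold change was -1.17 (unadjusted p = 0.188). STRA6, the nearest neighbour of ISLR at 2400 bases, had -1.11 (unadjusted p = 0.188). Both had the sign of ISLR in fat, and neither passed in limma. In muscle STRA6 was at -1.32 (unadjusted p = 0.194), the opposite sign to ISLR.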
